A study of Mus musculus with 9 samples.

Results

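The genes described are 29 genes of B cell development, chosen by their symbols from the 18272 genes of the expression table, and all 29 were in it. They were sorted by role into 8 genes of the early stages (pro-B and pre-B cells), 5 genes of mature B cells, 10 genes of the B cell receptor and cell surface and 6 transcriptional regulators that several stages share. RNA-seq, which counts the mRNA of all genes in a tissue, had been done on 1 tibia from each of 9 female C57BL/6J mice in 3 groups of 3. NGT mice (normal glucose tolerance) had citrate vehicle injected in place of STZ and are labelled with saline as their treatment. T1D mice received a single injection of streptozotocin (STZ), which kills the beta cells that make insulin, and then saline, and Lira mice received STZ and then liraglutide (a GLP-1 receptor agonist) at 0.6 mg/kg/day. The mice were 10 to 11 weeks old when bought, were acclimated for 1 week, and began treatment 2 weeks after diabetes was induced. Treatment lasted 8 weeks, but the label of Lira mouse 3 gives 9 weeks. STZ diabetes is a chemical model in which beta cells are poisoned, not one of spontaneous autoimmunity. Each library came from a separate mouse.

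B cells are made in the marrow of bones such as the tibia. Pro-B cells cut and join the heavy chain gene with the RAG recombinase, pre-B cells display that chain with a surrogate light chain as the pre-B cell receptor, and cells that then join a light chain gene mature and recirculate through the marrow. Signals from interleukin 7 sustain the early stages, the regulators EBF1 and PAX5 set and hold B cell identity, and the CD79A and CD79B proteins carry the signal of the receptor from the pre-B stage onwards. The immunoglobulin constant region genes were not analysed here.

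Library totals ranged from 13086373 to 16528394 counts. Levels are given as CPM (counts scaled to a common library total of 1e6) after TMM normalization, which rescales the totals and assumes that most genes are unchanged. It does not correct for the mix of cells and tissues in a bone. Where a gene had no counts, as many as 3 could have been missed by counting error alone, which is 0.163 to 0.237 CPM by library. Testing was limited to the 13960 genes that reached 10 counts in 3 or more libraries, and 27 of the 29 B cell genes were among them, *Vpreb2* and *Rag2* being too low. The groups were compared with the quasi-likelihood test of edgeR, adjusted by Benjamini-Hochberg over all tested genes, and a gene was called at an adjusted p-value under 0.05 with a fold change over 2. A list of 15 skeletal muscle genes took 12.5% to 23.8% of the counts, although the bones had been cleaned of muscle.

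The B cell genes varied between mice of the same group far more than between the groups. Lira mouse 3 had the highest level of 26 of the 27 tested genes, where it was the highest library for 19.9% of all tested genes. NGT mouse 2 had the lowest level, ties included, of 24 of the 27, against 15.1% of all tested genes. In NGT mouse 2, 10 of the 29 genes had a count of 0 and 19 had 3 counts or fewer. The ratio of the highest to the lowest library, taken on CPM + 1, was over 4 for 23 of the 27 genes (85.2%) and for 14.8% of all tested genes, with medians of 10.6 and 1.93. The median SD between mice of a group was 1.18 on the log2(CPM + 1) scale for the 27 genes and 0.31 for all tested genes, and the range of the 3 group means exceeded that SD in 3 of the 27 genes and in 40.8% of all tested genes. In a piece of bone, fewer B cells and less of these RNAs per B cell cannot be told apart.

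**Figure D1:**
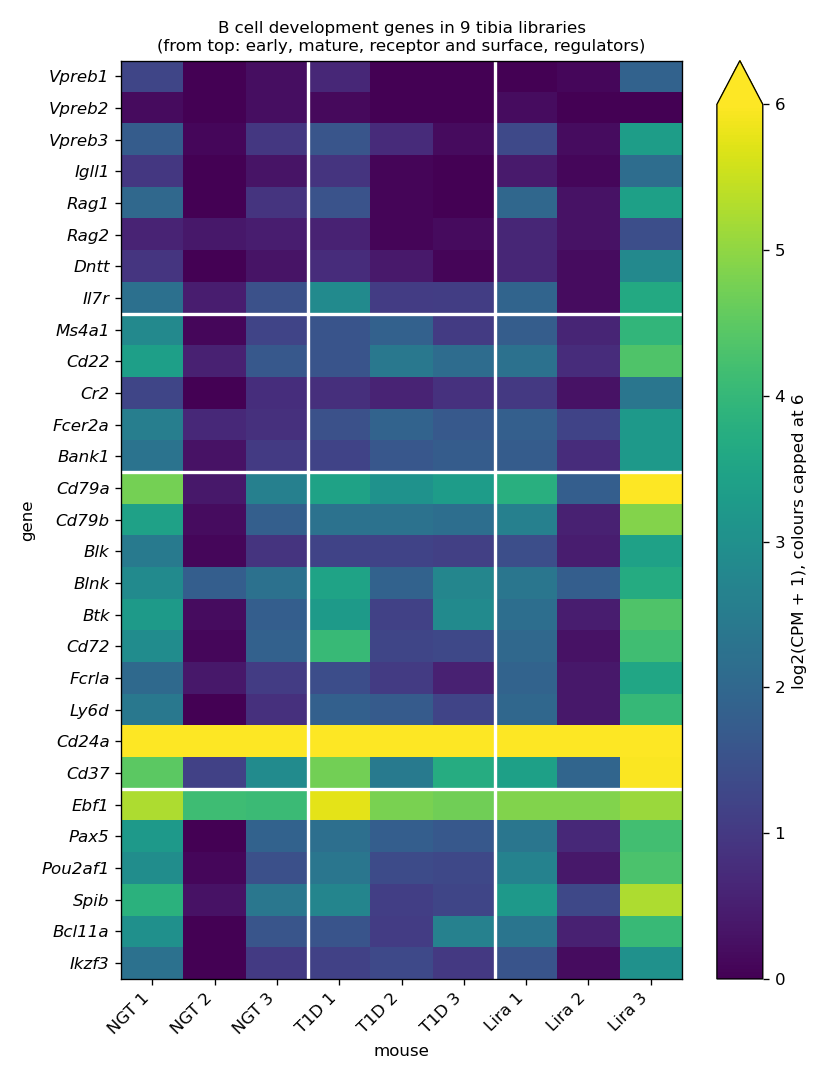
Level of each of the 29 B cell genes (rows) in each mouse (columns) as log2(CPM + 1), with colours capped at 6 and white lines between the groups and between the early, mature, receptor and surface, and regulator genes. Lira mouse 3 held the highest level of 27 of the 29 genes and NGT mouse 2 the lowest, ties included, of 25, while *Ebf1* stays bright in every mouse and *Cd24a* lies at the colour cap in all 9.

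The early genes were low in every group and did not part the groups. *Rag1* (19373), the recombinase subunit with the cutting activity, was at 3.05, 0 and 0.87 CPM in NGT mice 1, 2 and 3, at 1.90, 0.07 and 0 CPM in T1D mice 1, 2 and 3, and at 3.0, 0.23 and 9.64 CPM in Lira mice 1, 2 and 3. Each group held at least 1 mouse at or near 0 and at least 1 well above it, so the groups overlapped. *Rag2* (19374), its partner subunit, was too low to test, with 8, 4 and 5 counts in NGT mice, 9, 1 and 2 counts in T1D mice and 8, 3 and 30 counts in Lira mice. *Dntt* (21673), the polymerase that adds untemplated bases where gene segments join, was at 0.89, 0 and 0.24 CPM in NGT mice, 0.71, 0.33 and 0.07 CPM in T1D mice and 0.57, 0.16 and 6.03 CPM in Lira mice. Only Lira mouse 3 exceeded 1 CPM of *Dntt*. *Il7r* (16197), the receptor chain for interleukin 7 that T cells also carry, was at 3.68, 0.39 and 1.82 CPM in NGT mice, 6.36, 1.11 and 1.13 CPM in T1D mice and 2.85, 0.16 and 11.5 CPM in Lira mice.

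The surrogate light chain is made by *Vpreb1*, *Vpreb2* and *Igll1*. *Vpreb1* (22362) was at 1.40, 0 and 0.16 CPM in NGT mice, at 0.60, 0 and 0 CPM in T1D mice, and at 0, 0.08 and 2.70 CPM in Lira mice. *Igll1* (16136) was at 0.95, 0 and 0.24 CPM in NGT mice, 0.87, 0.07 and 0 CPM in T1D mice, and 0.36, 0.08 and 3.44 CPM in Lira mice. The 2 genes were highest in the same 3 mice, NGT mouse 1, T1D mouse 1 and Lira mouse 3, 1 from each group. *Vpreb3* (22364), a related chain that is also made in more mature B cells, was at 2.35, 0.08 and 0.95 CPM in NGT mice, 2.01, 0.65 and 0.13 CPM in T1D mice, and 1.5, 0.16 and 9.07 CPM in Lira mice. *Vpreb2* (22363) had 2 counts in each of NGT mice 1 and 3, T1D mouse 1 and Lira mouse 1, and 0 in the other mice. The transcripts of *Vpreb1* and *Vpreb2* (766 and 759 bases in GENCODE M21) were 96.5% identical, with a longest identical run of 196 bases, so reads may have been divided between the 2 genes and the values of both are uncertain.

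The promoters of these genes and of *Cd79a*, the most abundant B cell receptor gene here, are shown because most of their products are parts of the pre-B cell receptor, and because all of them but *Vpreb2* had their highest level in Lira mouse 3. Each window covers 250 bases before to 50 bases after the start of the gene in RefSeq's annotation of GRCm38.p6, read 5′ to 3′ on the strand of the gene, with a motif in capitals. The regions are chr16:16869206-16869505 on the minus strand for *Vpreb1*, chr16:17980315-17980614 on the plus strand for *Vpreb2*, chr16:16863936-16864235 on the minus strand for *Igll1*, chr10:75948050-75948349 on the plus strand for *Vpreb3* and chr7:24897247-24897546 on the plus strand for *Cd79a*.
Vpreb1: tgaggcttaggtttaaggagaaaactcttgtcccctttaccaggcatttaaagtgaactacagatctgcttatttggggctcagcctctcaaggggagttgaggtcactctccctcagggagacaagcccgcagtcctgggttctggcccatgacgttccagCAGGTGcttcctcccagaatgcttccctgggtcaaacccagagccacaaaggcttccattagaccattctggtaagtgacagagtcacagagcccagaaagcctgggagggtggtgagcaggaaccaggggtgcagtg
Vpreb2: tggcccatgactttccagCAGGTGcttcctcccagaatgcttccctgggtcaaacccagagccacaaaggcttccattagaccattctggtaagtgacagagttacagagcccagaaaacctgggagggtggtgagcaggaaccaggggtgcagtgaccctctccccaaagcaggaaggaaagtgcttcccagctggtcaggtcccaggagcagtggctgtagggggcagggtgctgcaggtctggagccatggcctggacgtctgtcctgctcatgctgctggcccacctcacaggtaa
Igll1: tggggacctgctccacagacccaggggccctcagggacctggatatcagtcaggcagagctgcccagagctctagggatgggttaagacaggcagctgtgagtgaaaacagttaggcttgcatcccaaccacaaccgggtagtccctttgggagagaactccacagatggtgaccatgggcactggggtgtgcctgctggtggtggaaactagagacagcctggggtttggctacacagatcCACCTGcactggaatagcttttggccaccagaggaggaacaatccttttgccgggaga
Vpreb3: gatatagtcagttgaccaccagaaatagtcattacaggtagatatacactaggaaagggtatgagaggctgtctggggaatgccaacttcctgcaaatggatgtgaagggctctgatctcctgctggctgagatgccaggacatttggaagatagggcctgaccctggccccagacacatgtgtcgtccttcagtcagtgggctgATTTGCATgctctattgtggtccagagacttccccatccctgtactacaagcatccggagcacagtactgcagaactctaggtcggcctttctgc
Cd79a: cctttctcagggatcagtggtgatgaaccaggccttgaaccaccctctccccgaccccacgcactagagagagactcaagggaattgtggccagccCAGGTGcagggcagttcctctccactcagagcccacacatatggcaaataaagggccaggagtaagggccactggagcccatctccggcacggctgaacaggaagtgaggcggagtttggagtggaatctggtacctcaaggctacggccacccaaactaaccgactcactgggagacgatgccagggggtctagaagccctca

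The capitals mark the E-box letters CAGGTG, which E2A and related factors are known to bind, in *Vpreb1* (position -88 from the start), *Vpreb2* (-232), *Igll1* (-8) and *Cd79a* (-154), and the octamer ATTTGCAT in *Vpreb3* (-45). Windows were available for 23 of the 29 genes, and both strands were searched. The 23 genes had 26 windows, since a few have several starts. The E-box was in 12 of the 26 windows, each of another gene, and in 20.2% of all 32851 windows of this length. The octamer, bound by the OCT factors with which POU2AF1 works, was in 2 of the 26 (*Vpreb3* and *Blnk*) and in 1.74% of all windows. The 2 motifs did not overlap in the windows shown. A match describes letters only, and its absence says nothing about binding.

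The mature B cell genes were likewise spread within each group. *Ms4a1* (12482), which encodes CD20, was at 6.03, 0.08 and 1.35 CPM in NGT mice, at 1.96, 2.62 and 1.07 CPM in T1D mice, and at 2.43, 0.55 and 14.5 CPM in Lira mice. *Cd22* (12483), an inhibitory receptor, was at 9.46, 0.46 and 2.14 CPM in NGT mice, 1.96, 4.26 and 3.33 CPM in T1D mice, and 3.71, 0.70 and 19.4 CPM in Lira mice. The T1D mice lay inside the range of both other groups for each of these 2 genes. *Cr2* (12902), the complement receptor CD21, was at 1.40, 0 and 0.71 CPM in NGT mice, 0.76, 0.52 and 0.80 CPM in T1D mice, and 1.0, 0.23 and 4.13 CPM in Lira mice. *Fcer2a* (14128), the IgE receptor CD23, was at 4.95, 0.62 and 0.79 CPM in NGT mice, 1.79, 2.75 and 2.20 CPM in T1D mice, and 2.5, 1.32 and 8.27 CPM in Lira mice. *Bank1* (242248), a scaffold of receptor signalling, was at 3.87, 0.23 and 1.03 CPM in NGT mice, 1.30, 2.10 and 2.33 CPM in T1D mice, and 2.36, 0.70 and 8.55 CPM in Lira mice. For all 5 mature genes NGT mouse 2 was lowest and Lira mouse 3 highest, and T1D mice were closer to each other than the mice of the other groups were.

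Among the receptor and surface genes, *Cd79a* (12518) was at 25.9, 0.31 and 5.15 CPM in NGT mice, at 10, 7.33 and 9.00 CPM in T1D mice, and at 12.8, 2.49 and 86.8 CPM in Lira mice. Its level in Lira mouse 3 was 280.5 times that in NGT mouse 2, which rested on 4 counts. Group means were 10.4 ± 13.6 CPM in NGT, 8.78 ± 1.35 CPM in T1D and 34.0 ± 46.0 CPM in Lira mice (SD, n = 3 each), so that the SD exceeded the mean in NGT and Lira mice. *Cd79b* (15985), its partner, was at 9.77, 0.15 and 2.53 CPM in NGT mice, 3.81, 3.80 and 3.53 CPM in T1D mice, and 5.07, 0.47 and 28.5 CPM in Lira mice. The 2 genes ordered the mice alike at both ends. *Blk* (12143), a receptor kinase, ranged from 0.08 CPM in NGT mouse 2 to 9.76 CPM in Lira mouse 3, and *Fcrla* (98752), an intracellular Fc receptor-like protein, from 0.31 to 10.7 CPM. *Ly6d* (17068), a surface marker of early B cell commitment, ranged from 0 to 15.2 CPM between the same 2 mice.

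A few receptor and surface genes were also high in T1D mouse 1, although Lira mouse 3 remained the highest for all 10. In T1D mouse 1, *Cd72* (12517), an inhibitory co-receptor, was at 15.4 CPM, against 1.37 and 1.47 CPM in T1D mice 2 and 3 and 16.8 CPM in Lira mouse 3. *Btk* (12229), the kinase whose loss blocks B cell maturation in people, was at 8.70 CPM in T1D mouse 1. It was at 1.24 and 6.34 CPM in T1D mice 2 and 3 and at 19.3 CPM in Lira mouse 3. Per count of *Cd79a*, T1D mouse 1 had 1.54 counts of *Cd72*, against 0.0938 to 0.508 in the other 8 mice. The same mouse had the highest summed level of a list of 11 macrophage genes, 2214.6 CPM against 111.6 to 659.5 CPM in the others. *Btk*, *Cd72*, *Blnk* and *Cd37* are also known from myeloid cells, and the part of macrophages in these values was not tested. *Blnk* (17060), the adaptor that links the receptor kinase to its targets, was at 10.1 CPM in T1D mouse 1. There *Cd37* (12493), a tetraspanin of leukocytes, was at 25.6 CPM, and both were higher in Lira mouse 3, at 11.9 and 61.0 CPM. In NGT mouse 1, where the macrophage list summed to 417.8 CPM, *Btk* and *Cd37* were nearly as high as in T1D mouse 1, at 8.63 and 21.6 CPM. *Cd72* and *Blnk* were lower in NGT mouse 1, at 6.6 and 6.28 CPM. *Cd24a* (12484), a surface glycoprotein that erythroid and many other cells carry, was at 348.3 to 811.6 CPM in the 9 mice and was highest in Lira mouse 3 but lowest in T1D mouse 1.

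The regulators behaved like the receptor genes, apart from *Ebf1*. *Pax5* (18507) was at 8.38, 0 and 2.69 CPM in NGT mice, at 3.59, 2.49 and 2.13 CPM in T1D mice, and at 4.14, 0.62 and 17.2 CPM in Lira mice. *Pou2af1* (18985), the B cell coactivator of the OCT factors, was at 6.73, 0.08 and 1.74 CPM in NGT mice, 4.13, 1.57 and 1.47 CPM in T1D mice, and 5.28, 0.31 and 18.8 CPM in Lira mice. For both genes NGT mouse 1, T1D mouse 1 and Lira mouse 3 were the highest of their groups. *Ebf1* (13591), which marrow stromal cells and adipocyte precursors also express, was at 37.1, 16.6 and 16.1 CPM in NGT mice, 52.9, 26.5 and 25.1 CPM in T1D mice, and 28.0, 28.0 and 33.4 CPM in Lira mice. It was the only tested B cell gene that was highest outside Lira mouse 3, and in NGT mouse 2, where *Pax5* had a count of 0, *Ebf1* had 215 counts. *Spib* (272382), a factor of B cells and plasmacytoid dendritic cells, ranged from 0.23 CPM in NGT mouse 2 to 37.4 CPM in Lira mouse 3. *Bcl11a* (14025) and *Ikzf3* (22780), which encode zinc finger factors of lymphocytes, ranged from 0 to 15.6 CPM and from 0 to 7.18 CPM between the same 2 mice.

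**Figure D2:**
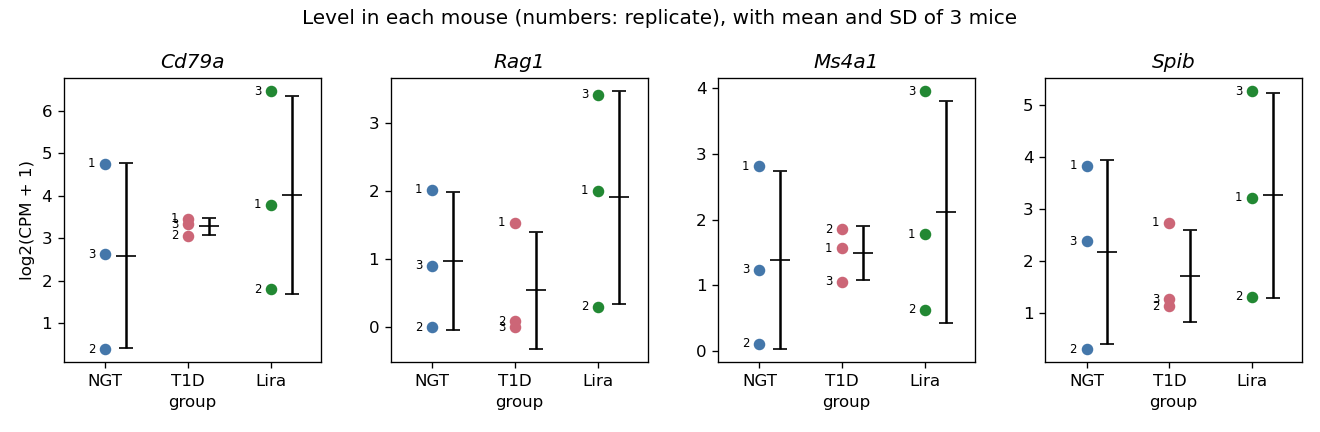
Level of *Cd79a*, *Rag1*, *Ms4a1* and *Spib* in each mouse as log2(CPM + 1), by group, with the replicate number beside each point and the mean and SD of 3 mice as bars. In all 4 panels Lira mouse 3 is the highest point, NGT mouse 2 is the lowest or shares the lowest place, and the ranges of the 3 groups overlap.

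Levels of different genes can be compared only per gene length, which the deposited FPKM values allow. By the median FPKM of the 9 mice, *Cd24a* led at 252.7 FPKM, followed by *Cd37* at 6.40, *Cd79a* at 6.21, *Ebf1* at 5.39, *Ly6d* at 3.42 and *Cd79b* at 3.13 FPKM. From *Cd37* down to *Cd79b* these neighbours overlapped across the 9 mice, for instance 0.91 to 48.6 FPKM for *Cd37* and 0.21 to 74.0 FPKM for *Cd79a*. The lowest medians were those of *Rag1* and of the mature gene *Cr2*, both at 0.11 FPKM, of *Rag2* at 0.10, *Vpreb1* at 0.09 and *Vpreb2* at 0 FPKM. The stages overlapped, since *Vpreb3* at 1.60 FPKM lay above every mature gene, of which *Ms4a1* was the highest at 1.08 FPKM.

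Between T1D and NGT mice, which asks what diabetes does in the tibia, 0 of the 27 tested B cell genes were called, as were 0.0% of all 13960 tested genes, and none of the 27 had an unadjusted p-value under 0.05 (3.95% of all tested genes did). Fitted log2 fold changes were above 0 for 9 of the 27 (52.1% of all tested genes), with a median of -0.26 against 0.02 for all tested genes. The median was -0.30 for the early genes, -0.03 for the mature genes, 0.05 for the receptor and surface genes and -0.31 for the regulators. *Cd79a* had a log2 fold change of -0.26 (standard error 1.35, adjusted p = 0.992, edgeR's quasi-likelihood test, Benjamini-Hochberg adjusted), and *Rag1* one of -0.97 (standard error 1.74, adjusted p = 0.986 in the same test). The lowest unadjusted p-value belonged to *Ebf1*, with a log2 fold change of 0.58 (standard error 0.39, unadjusted p = 0.173 and adjusted p = 0.977, edgeR's quasi-likelihood test). No B cell gene had groups that did not overlap, whereas 3.52% of all tested genes were higher and 5.08% lower in every T1D than in every NGT mouse. The direction rested on single mice. Without NGT mouse 1 the median was 1.35 for the early and 1.40 for the mature genes, and without T1D mouse 1 it was -2.41 for the early genes, a fit in which *Vpreb1*, *Rag1* and *Igll1* had at most 1 count in either remaining T1D mouse. Without T1D mouse 3 the early median was 0.23. With the replicate number as a block over all 9 libraries, none of the 27 passed an unadjusted 0.05, and the medians were 0.07 for the early and 0.45 for the mature genes. With the block and only the NGT and T1D mice, 2 of the 27 (*Cd37* and *Ebf1*) passed that threshold, against 14.0% of all tested genes. The medians were then -0.37 for the early and 0.34 for the mature genes. The methods name no pairing of the mice, so the block rests on the replicate numbers alone. This restricted fit was added after seeing the data.

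Between Lira and T1D mice, which asks what liraglutide does in diabetic bone, 0 of the 27 genes were called (0.0% of all tested genes), and none had an unadjusted p-value under 0.05 (3.33% of all tested genes). Fitted values were above 0 for 26 of the 27, the exception being *Ebf1*, against 55.3% of all tested genes, and the median was 1.42 against 0.04. By stage the median log2 fold change was 2.06 for the early, 1.32 for the mature, 1.19 for the receptor and surface and 1.36 for the regulator genes. *Rag1* had a log2 fold change of 2.67 (standard error 1.78), *Dntt* of 2.58 (standard error 1.45), *Spib* of 2.51 (standard error 1.39), *Cd79a* of 1.96 (standard error 1.38) and *Ms4a1* of 1.63 (standard error 1.32), each with an adjusted p of 0.978 in edgeR's quasi-likelihood test. *Fcrla* had the lowest unadjusted p-value of the 27, 0.104, at a log2 fold change of 2.10 (standard error 1.16, edgeR's quasi-likelihood test). An exact permutation test over the mice on log2(CPM + 1) gave p = 0.7 for *Cd79a*, 0.2 for *Rag1*, 0.8 for *Ms4a1* and 0.2 for *Spib*, where 3 mice against 3 allow no p under 0.1. None of the 27 had groups that did not overlap (3.74% of all tested genes higher and 3.4% lower in every Lira mouse).

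Most of the positive values rested on Lira mouse 3. Without this mouse, fitted log2 fold changes between Lira and T1D mice were above 0 for 5 of the 27 genes (*Rag1*, *Fcrla*, *Cd24a*, *Pou2af1* and *Spib*), and the median was -0.30, with -0.36 for the early and -0.31 for the mature genes. The value of *Cd79a* went from 1.96 to -0.19 and that of *Ms4a1* from 1.63 to -0.33. Without T1D mouse 1 the early median was 4.23, again against T1D mice with few early counts. Between Lira and NGT mice, which uses the same Lira mice, 0 of the 27 were called (0.0% of all tested genes) and none had an unadjusted p-value under 0.05 (0.781% of all tested genes). All 27 fitted values were above 0 (55.5% of all tested genes) at a median of 1.22, and without Lira mouse 3 there were 3 of 27 at a median of -0.43. Without NGT mouse 1 the median was 3.34 for the early and 2.61 for the mature genes, and 3 of the 27 (*Bank1*, *Fcer2a* and *Ebf1*) had an unadjusted p-value under 0.05, as did 2.24% of all tested genes. In this comparison too, none of the 27 had groups that did not overlap (2.49% of all tested genes higher and 1.78% lower in every Lira mouse). The comparisons share mice, so they are not independent of each other.

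**Figure D3:**
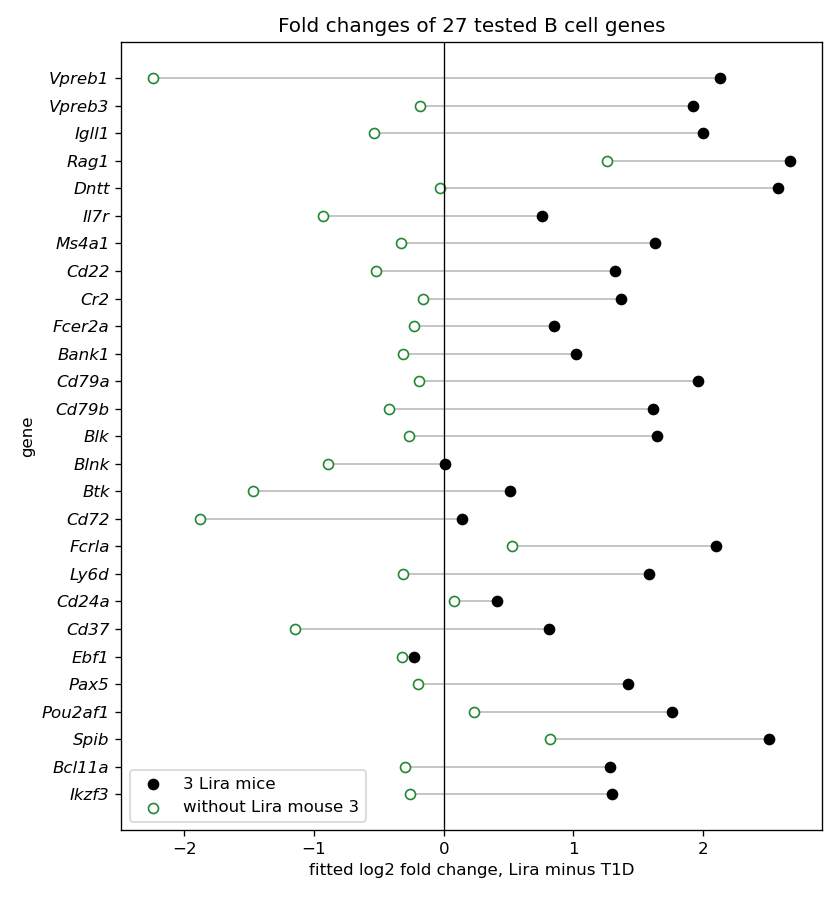
Fitted log2 fold change of Lira minus T1D mice for each of the 27 tested B cell genes, with all 3 Lira mice (filled) and without Lira mouse 3 (open), each line joining the values of 1 gene. With all mice 26 of 27 values lie above 0, and without Lira mouse 3 there are 5 of 27.

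Early and mature stages were then compared within each mouse, as a share that does not depend on how much of both lists a library held. Of the counts that fell on the 8 early and 5 mature genes together, the early genes took 33.5% (95% Wilson interval 29.9 to 37.3), 35.7% (20.7 to 54.2) and 44.5% (36.5 to 52.9) in NGT mice 1, 2 and 3. In T1D mice they took 62.7% (57.7 to 67.4), 15.8% (11.6 to 21.1) and 13.1% (8.81 to 19.0). In Lira mice they took 42.9% (37.3 to 48.6), 23.7% (14.7 to 36.0) and 44.6% (42.3 to 47.0). The T1D group thus held the highest share and the 2 lowest, and NGT and Lira mice lay between them. Group means were 37.9 ± 5.82% in NGT, 30.5 ± 27.9% in T1D and 37.1 ± 11.6% in Lira mice (SD, n = 3 each), so the differences between means were smaller than the SD in T1D mice. The intervals cover counting error only, and NGT mouse 2 and Lira mouse 2 rested on 28 and 59 counts.

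The early share was partly one of *Il7r*, which held 117 of the 240 early counts in T1D mouse 1. Without *Il7r*, a setting added after seeing the data, the shares were 26.5%, 21.7% and 33.3% in NGT mice, 46.2%, 8.78% and 3.31% in T1D mice, and 33.9%, 21.1% and 37.3% in Lira mice. Here too T1D mouse 1 was the highest and T1D mice 2 and 3 the lowest. In T1D mice 2 and 3 the 5 mature genes had 187 and 146 counts, beside 143 in T1D mouse 1, while *Rag1* had 1 and 0 counts, against 35 in T1D mouse 1. *Igll1* had 1 and 0 counts there, against 16. On the log2(CPM + 1) scale, the mean of the 6 tested early genes minus the mean of the 5 mature genes was -0.53 ± 0.37 in NGT, -0.82 ± 0.77 in T1D and -0.58 ± 0.06 in Lira mice (SD, n = 3 each).

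**Figure D4:**
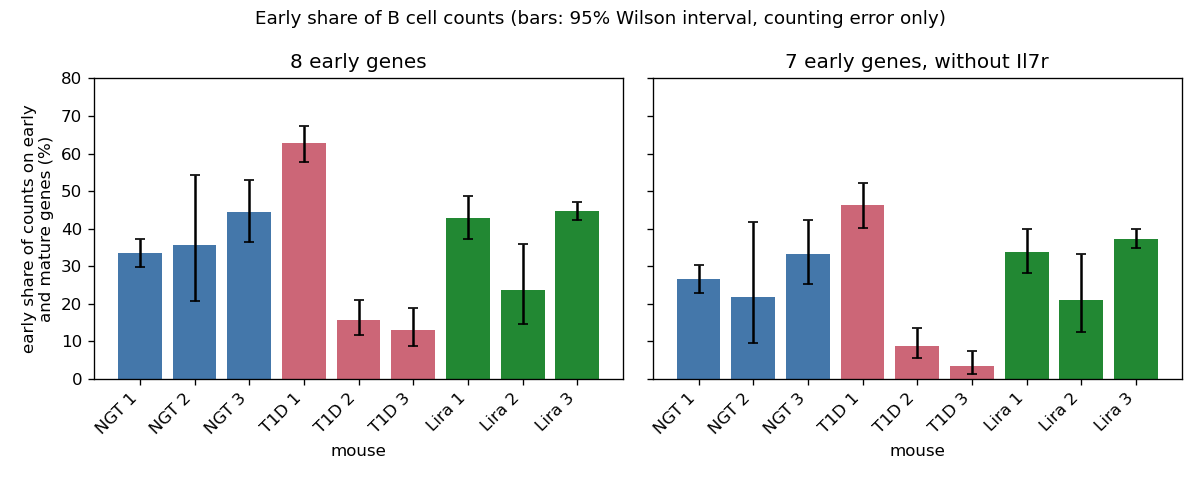
Share (%) of the counts on the early and mature B cell genes together that fell on the early genes, per mouse, with 95% Wilson intervals for counting error, for all 8 early genes (left) and for 7 without *Il7r* (right). T1D mouse 1 stands highest at 62.7% and T1D mice 2 and 3 lowest at 15.8% and 13.1%, while NGT and Lira mice lie from 23.7% to 44.6%.

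Neutrophil and erythroid genes had their extremes in the same mice as most of these genes. The summed level of 12 neutrophil genes was 2400.3, 4.02 and 447.8 CPM in NGT mice, 1279.4, 54.3 and 1481.2 CPM in T1D mice, and 750.7, 111.9 and 5195.3 CPM in Lira mice. The summed level of 11 erythroid genes was lowest in NGT mouse 2 (462.3 CPM) and highest in Lira mouse 3 (29472.8 CPM), and 14 of 14 cell cycle genes were highest in Lira mouse 3. Thus the mouse at each end of the B cell genes was also the mouse at each end of both marrow lists. T1D mouse 3 departed from this, with the third highest neutrophil sum and 19341.7 CPM of erythroid genes but only 1.47 CPM of the 8 early genes. T1D mouse 1 had 13 CPM of the early genes but 2006.4 CPM of erythroid genes. T1D mouse 2 departed in the mature genes, which summed to 12.2 CPM beside 54.3 CPM of neutrophil genes. The macrophage and the T and NK cell lists were highest in T1D mouse 1, at 2214.6 and 74.9 CPM, not in Lira mouse 3. The skeletal muscle list took 15.7%, 12.5% and 15.4% of the counts in NGT mouse 1, T1D mouse 1 and Lira mouse 3, and 20.2% to 23.8% in the other 6 mice. Those 3 mice were also the highest of their groups for *Cd79a*. The part of the other marrow cells and of muscle in the B cell values was not tested.

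**Figure D5:**
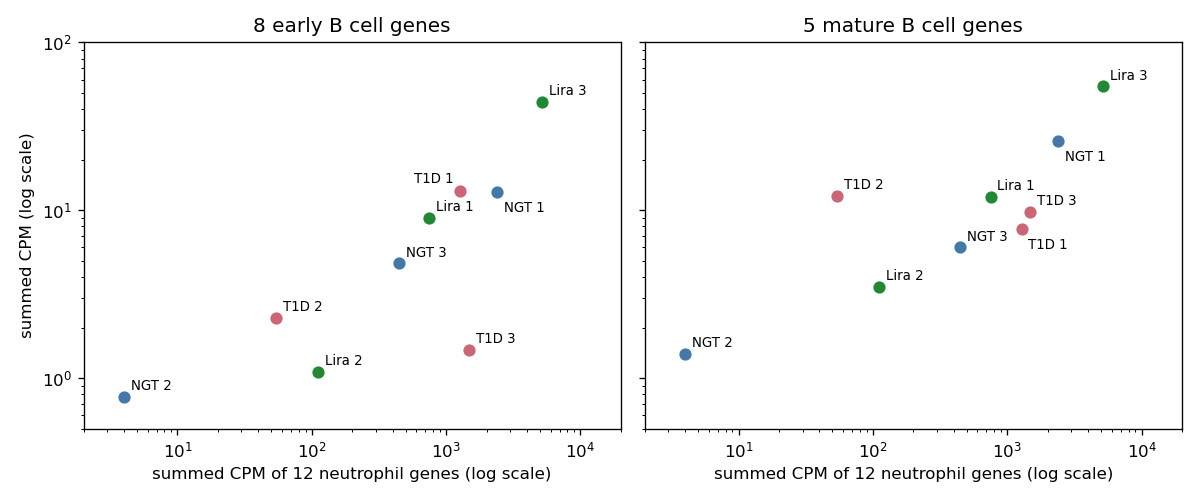
Summed CPM of the 8 early (left) and 5 mature (right) B cell genes in each mouse against the summed CPM of 12 neutrophil genes, all on log scales and coloured by group. NGT mouse 2 lies at the lower left and Lira mouse 3 at the upper right of both panels, T1D mouse 3 lies low for the early genes (1.47 CPM), and T1D mouse 2 lies high for the mature genes (12.2 CPM).

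The label of the gene list was checked against markers of other cells that share its genes. *Cd3e* of T cells was at 0 to 1.69 CPM and *Siglech* of plasmacytoid dendritic cells at 0.309 to 5.74 CPM. Of the T and NK cell list (17 genes), 13 were tested, and the summed level was 14.5 to 44.6 CPM in NGT, 23.3 to 74.9 CPM in T1D and 16.2 to 57.5 CPM in Lira mice. *Madcam1*, a marker of lymph node vessels, was at 0 to 0.327 CPM. *Ccl21a*, a chemokine of lymphatic and lymph node stroma, was at 67.5 CPM in T1D mouse 1 and at 3.48 to 21.5 CPM in the others.

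Further genes of B cell development and signalling that were not among the 29 gave no calls either. Of 17 other early genes tested, 0 were called in any comparison, with 0, 2 and 1 at an unadjusted p-value under 0.05 in T1D against NGT, Lira against T1D and Lira against NGT mice, beside 3.95%, 3.33% and 0.781% of all tested genes. The genes were *Sox4*, a factor that pro-B cells and many other cells need, and *Foxo1*, which acts upstream of the *Rag* genes and is also expressed in muscle. *Sox4* was at 9.77, 9.28 and 5.78 CPM in NGT mice, 14.0, 7.53 and 7.20 CPM in T1D mice, and 27.5, 19.5 and 17.3 CPM in Lira mice. All 3 Lira mice lay above all other mice (3.74% of all tested genes were so placed against T1D and 2.49% against NGT mice), at a log2 fold change of 1.16 against T1D mice (standard error 0.34, unadjusted p = 0.00778, adjusted p = 0.978, edgeR's quasi-likelihood test, Benjamini-Hochberg adjusted). *Sox4* was lower in Lira mouse 3 than in the other Lira mice. *Foxo1* was at 80.7, 129.0 and 104.2 CPM in NGT mice, 46.4, 53.5 and 55.7 CPM in T1D mice, and 293.1, 65.4 and 70.9 CPM in Lira mice. All T1D mice lay below all other mice in *Foxo1*, as did 5.08% of all tested genes against NGT mice and 3.74% against Lira mice. *Chchd10*, which encodes a mitochondrial protein, was at 514.0, 701.4 and 646.6 CPM in NGT mice, 404.0, 406.4 and 429.1 CPM in T1D mice, and 510.1, 720.7 and 343.5 CPM in Lira mice, so that T1D mice lay below NGT mice but not below all Lira mice. None of the 16 tested other genes of mature B cells and of the 18 of receptor signalling had an unadjusted p-value under 0.05 in any of the 3 comparisons, and the median log2 fold changes of these lists were 0.34 and 0.26 between Lira and T1D mice.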

How the data were processed

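RNA from 9 tibiae (3 NGT, 3 T1D and 3 Lira mice) had been enriched with oligo(dT) beads and sequenced. The authors deposited expected counts per gene (called read counts in the header, 30.2% of values not whole, hence rounded here) and FPKM values, scaled by the authors for gene length and library total. The submitters' processing notes name the build mm9, while the aligner, the counting tool, the annotation and the strand setting are not given in the sources used here. Columns of group averages were not used.

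The 29 genes and all lists were chosen with earlier results of these data known. Genes that reached 10 counts in 3 or more libraries were fitted in R 4.3.3 with edgeR 4.0.16 (TMM, glmQLFit, glmQLFTest, 3 group means over 9 libraries, two-sided). The biological coefficient of variation was 0.433. CPM used TMM-scaled library totals. In simulated T1D and NGT counts for 13960 genes, of which 200 were changed, 98 were recovered at 4-fold with 1 false call and 173 at 16-fold with 7. The changed genes were drawn from all tested genes, so these rates do not hold for the B cell genes. Their median SD within a group was 1.18 on the log2(CPM + 1) scale, against 0.31 for all tested genes. All members are accounted for, with the value of every mouse for the early and mature genes, *Cd79a*, *Cd79b*, *Ebf1*, *Pax5* and *Pou2af1*. Other genes were named where they marked a cell type or were among at most 3 per list with an unadjusted p-value under 0.05. An exception was *Chchd10*, which met neither condition and whose T1D values all lay below its NGT values.

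NGT and T1D mice of the same replicate number correlated at r = 0.583, 0.647 and 0.283 across genes, as deviations from their group means. All 3 exceed 0.1, the cut set here for treating numbers as pairs, but the methods name no pairing. The correlations were -0.244, 0.615 and 0.271 between T1D and Lira mice, not all above that cut. Between NGT and Lira mice they were -0.173, 0.727 and 0.0125, again not all above it. For NGT and Lira mice of unlike number they ran from -0.777 to 0.780, so a correlation does not show a pair. The alternatives were no filter, library totals, fits of 2 groups, the replicate block, DESeq2 1.42.0, limma 3.58.1 on log2(CPM + 1), no fold threshold, other pseudocounts and leaving out each mouse. The block with only 2 groups, and the early share without *Il7r*, were added after seeing the data. Promoters came from RefSeq (GRCm38.p6), whose build differs from that of the counts.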

Additional observations from a re-analysis of the deposited data

How the results depend on the processing

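No B cell gene was called under any alternative run. DESeq2 called 1 gene in all between Lira and T1D mice, which was no B cell gene, and gave 1 B cell gene (*Spib*) an unadjusted p-value under 0.05. At that threshold edgeR had 552, 465 and 109 of all tested genes, DESeq2 697, 620 and 154, and limma 509, 380 and 109, in T1D against NGT, Lira against T1D and Lira against NGT mice. Several directions between T1D and NGT mice were not stable. With the replicate block the median log2 fold change was 0.07 for the early and 0.45 for the mature genes, with 0.77 for *Cd79a* and 0.52 for *Ms4a1*. With the block and only the 2 groups compared, 2 B cell genes (*Cd37* and *Ebf1*) passed an unadjusted 0.05 (14.0% of all tested genes did), the early median kept its sign at -0.37, and values were 0.34 for the mature genes, 0.77 for *Cd79a* and 0.22 for *Ms4a1*. With limma on log2(CPM + 1) they were 0.16, 0.69 and 0.11. The limma scale, which understates low genes, gave medians of 0.68 (Lira against T1D) and 0.61 (Lira against NGT) for the early genes. The replicate block changed no call in any comparison. Lira and T1D mice also share only a number. There the block gave medians of 2.03 for the early and 0.55 for the mature genes, with 0.87 for *Cd79a* and 0.69 for *Ms4a1*. It moved the count at an unadjusted 0.05 from 465 to 507 of all tested genes.

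With each mouse left out in turn, T1D against NGT ranged from -2.41 to 1.35 for the early and from -0.60 to 1.40 for the mature genes, from -0.82 to 1.69 for *Cd79a*, from -5.00 to 0.62 for *Rag1* and from -0.97 to 1.40 for *Ms4a1*. Lira against T1D ranged from -0.36 to 4.23 for the early and from -0.31 to 1.86 for the mature genes, from -0.19 to 2.5 for *Cd79a*, from -0.03 to 3.47 for *Dntt* and from -0.33 to 2.16 for *Ms4a1*, while *Rag1* (1.26 to 6.7), *Spib* (0.82 to 3.6) and *Fcrla* (0.53 to 2.65) kept their sign. Lira against NGT ranged from -0.41 to 3.34, from -0.20 to 2.61 and, for *Cd79a*, from -0.45 to 3.64. The B cell genes with an unadjusted p-value under 0.05 then numbered 0 to 1 in T1D against NGT mice (*Ebf1* without NGT mouse 1, beside 7.31% of all tested genes). In Lira against T1D mice they numbered 0 to 1 (*Rag1* without T1D mouse 1, beside 2.36%, and *Fcrla* without Lira mouse 2, beside 3.13%). In Lira against NGT mice they numbered 0 to 3 (without NGT mouse 1, beside 2.24%). The early minus mature level was -1.09 in NGT, -2.0 in T1D and -1.21 in Lira mice with a pseudocount of 0.1 CPM. On FPKM it was -0.07 in NGT, -0.17 in T1D and 0.00 in Lira mice with a pseudocount of 1, and -0.22, -0.85 and -0.27 with 0.1. The NGT early share was 27.2% without *Il7r*. The cause of these shifts was not tested.

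Depth limited the early genes most, since *Vpreb1*, *Igll1*, *Rag1* and *Dntt* had 3 counts or fewer in 4 to 6 of the 9 libraries, so differences between those libraries were not detectable.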

Other observations

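Other lists gave no calls in any of the 3 comparisons (edgeR's quasi-likelihood test). Of the plasma cell genes, 7 of 9 in the table were tested, and *Tnfrsf17*, a receptor of plasma cells, was at 0 to 0.272 CPM. *Jchain*, which joins antibody polymers, was at 20.6, 0.387 and 3.64 CPM in NGT mice, 18.6, 5.04 and 12.1 CPM in T1D mice, and 5.21, 0.623 and 20.1 CPM in Lira mice. *Sdc1*, a plasma cell and epithelial proteoglycan, had the only unadjusted p-value under 0.05 of this list, at a log2 fold change of -1.27 between Lira and T1D mice (standard error 0.46, unadjusted p = 0.0224, edgeR's quasi-likelihood test). In that comparison 3.33% of all tested genes passed.

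The macrophage list (11 tested) had, between T1D and NGT mice, 5 genes with an unadjusted p-value under 0.05, all higher in T1D mice (3.95% of all tested genes passed in either direction), and 2 between Lira and T1D mice (*C1qb* and *C1qc*), both lower in Lira mice (3.33%). T1D mouse 1 was the highest library for 9 of the 11. *C1qa*, a complement component of tissue macrophages, was at 229.3 CPM there and at 5.96 to 22.4 CPM in the other mice. *Cxcl13*, the chemokine that draws B cells into follicles, was at 1.46, 0.0773 and 0.396 CPM in NGT mice, 15.7, 0.982 and 3.67 CPM in T1D mice, and 3.71, 2.10 and 0.574 CPM in Lira mice. Among 5 tested lymph node genes it alone passed an unadjusted 0.05 in edgeR's quasi-likelihood test, in T1D against NGT mice (log2 fold change 3.35, standard error 1.24). In that comparison 3.95% of all tested genes passed.

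Of the skeletal muscle list (15 tested), *Myh2*, a myosin of fast oxidative fibres, had the only unadjusted p-values under 0.05. Its log2 fold changes were -1.42 between T1D and NGT mice (3.95% of all tested genes passed) and 1.56 between Lira and T1D mice (3.33%). Both comparisons share the T1D mice. The plasmacytoid dendritic (7 tested), erythroid (11), neutrophil (12), cell cycle (14) and T and NK cell (13) lists had 0 genes at that threshold in each comparison.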
